A study of Mus musculus with 18 samples.

Results

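The numbered Zfp genes are the mouse genes whose symbol is Zfp followed by digits alone, a naming series for zinc finger proteins. Zfp36, an RNA-binding protein of another finger class, was left out. Of 304 such genes with a probe set that reads a single gene, 257 were kept because their brightest probe set exceeded the 40th percentile of its array on 3 or more of the 18 arrays. That share was 84.5%, against 69.9% of the 18193 genes measured, which left 12719 genes to test. The 40th percentile, called the low end below, lay between 3.20 and 3.35 on the log2 scale of the deposited values.

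The cells were G1E-ER4, a clonal subline of mouse cells that were derived from embryonic stem cells with a disrupted Gata1 gene and that stop at an early red cell precursor stage. Every array, untreated ones included, came from this line, which carries GATA1, a master transcription factor of red cell development, fused to the ligand-binding part of the estrogen receptor, so that estradiol switches the fusion protein on. Cells received 20 nM estradiol, and RNA was measured on whole-genome expression arrays before estradiol (0 h) and after 3, 7, 14, 21 and 30 h of it, with 3 arrays a time. Per the labels the arrays at each time are biological replicates, with nothing said of separate cultures, and p-values therefore reflect the spread among these arrays, which may be technical. No group was kept without estradiol for the same hours, so time in culture, estradiol itself and GATA1 activity cannot be told apart.

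Most numbered Zfp proteins carry a row of C2H2 zinc fingers, each a loop held by a zinc ion that reads a few DNA bases. Many also carry a KRAB box, which recruits the corepressor TRIM28 and through it the histone methyltransferase SETDB1, heterochromatin proteins and deacetylases, and such proteins are best known for silencing transposable elements and imprinted genes. KRAB genes arose by repeated local duplication and lie in clusters. Other members have no KRAB box and act in making ribosomes, in mitosis, in RNA binding or as promoter factors.

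Promoter sequence was found for 213 of the 257 members in the RefSeq promoter table (build GRCm38.p6), read here as the 250 bases before each start. The first sequences are those of both largest rises, Zfp78 and Zfp790, and of 2 of the largest falls, Zfp710 and Zfp827, with CG pairs in capitals, since CG pairs are the sites of DNA methylation and mark one class of promoter.
Zfp78, chr7:6363058-6363307, plus strand: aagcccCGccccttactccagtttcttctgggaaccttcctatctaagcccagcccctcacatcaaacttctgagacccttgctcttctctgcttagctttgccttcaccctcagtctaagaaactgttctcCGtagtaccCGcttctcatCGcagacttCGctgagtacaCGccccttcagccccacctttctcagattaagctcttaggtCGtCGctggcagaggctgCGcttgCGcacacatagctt
Zfp790, chr7:29815822-29816071, plus strand: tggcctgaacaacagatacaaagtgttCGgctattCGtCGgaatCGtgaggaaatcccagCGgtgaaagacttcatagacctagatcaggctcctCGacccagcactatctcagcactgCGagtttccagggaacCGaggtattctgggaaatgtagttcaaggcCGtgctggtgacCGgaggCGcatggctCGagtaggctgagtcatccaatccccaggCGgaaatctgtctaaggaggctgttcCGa
Zfp710, chr7:80024564-80024813, plus strand: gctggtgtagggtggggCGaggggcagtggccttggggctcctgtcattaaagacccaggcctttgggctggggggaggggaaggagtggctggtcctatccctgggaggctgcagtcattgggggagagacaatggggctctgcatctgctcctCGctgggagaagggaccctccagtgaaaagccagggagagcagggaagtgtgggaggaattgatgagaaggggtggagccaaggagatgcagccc
Zfp827, chr8:79028187-79028436, plus strand: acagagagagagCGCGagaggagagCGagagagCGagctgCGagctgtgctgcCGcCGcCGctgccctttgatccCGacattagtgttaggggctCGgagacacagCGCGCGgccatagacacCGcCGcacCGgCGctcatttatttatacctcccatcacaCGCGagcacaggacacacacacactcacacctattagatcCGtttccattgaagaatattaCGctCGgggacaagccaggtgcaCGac
These windows hold 10, 14, 2 and 23 CG pairs in the order printed. The median was 12 over the members' genes, 15 over all tested genes and 6 over the whole table. None of the 4 windows holds AGATAA, one form of the GATA motif, on either strand. Other forms, such as AGATAG, were not searched, so these windows may still hold a GATA site.

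Besides CG pairs, 10 motifs were searched as exact letters on both strands of the 250 bases, none of which contains another. AGATAA, the 1 form of the GATA factor motif that was searched, was found for 8.92% of members with an entry, against 7.61% of tested genes. Among members that rose by 30 h it was found for 9.57% (9 genes), among those that fell for 2.94% (2 genes), and among those not called for 15.7% (8 genes). CCAAT was found for 48.4% of members against 40.1% of tested genes, with 55.3% of those that rose, 38.2% of those that fell and 49.0% of those not called. Splits by call are printed here for AGATAA and CCAAT, further down for CACGTG, and not for the other motifs. Those of AGATAA rest on few genes. CCGGAAG, the ETS factor core, was found for 19.7% of members against 15.1% of tested genes. ACTACAA, the core of the ZNF143 motif, was found for 7.51% against 4.17%, and CACGTG, the E-box of MYC and MAX, for 6.57% against 9.64%. The other 5 were AAGATGG (the YY1 core, 4.69% against 5.28%), CCACACCC (bound by KLF factors, 4.23% against 4.33%), TATAAA (7.98% against 8.21%), the core of the NRF1 motif (3.76% against 1.83%) and the palindrome known as the CGCG element (0% against 0.978%). A match is a description of the letters, with no test made.

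Array medians lay between 4.04 and 4.09, arrays of the same time correlated at 0.995 to 0.998, and 0 pairs were identical. How the deposited values were normalized is not stated, so like medians may come from that step and do not show like strength of signal. The summed linear level of 8 measured red cell markers rose from 8280 to 8409 at 0 h to between 26168 and 26642 at 30 h, with none below the low end throughout. The mast cell list fell from 422 to 521 at 0 h to between 74.8 and 81.8 at 30 h, with Tpsab1, Mcpt4 and Fcer1a below the low end on all arrays. The sum of the megakaryocyte list went from 481 to 523 to between 1965 and 2003, but its genes did not move together: of 6 tested 3 were higher and 2 lower, with Tubb1 from a mean of 2.43 to 10.62 and Gp5 and Pf4 changed by -3.99 and -2.34. Its members Gp1bb, Vwf and Ppbp were below the low end on all arrays. Granulocyte and macrophage markers (103 to 136 at 0 h, 100.5 to 115 at 30 h, with Mpo, Elane, Ctsg, Prtn3, S100a8 and Adgre1 below the low end) and lymphoid markers (74.9 to 80.7, then 81.5 to 89.7, with Cd3e and Ptprc below it) had low sums at both times. The part of these cell types in the members' changes was not tested, and in bulk RNA fewer cells of a type and less RNA per cell cannot be told apart.

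Members moved in both directions, and more of them passed the test at later times; how many rose for each that fell depended on how the arrays were scaled. A member is called when limma's moderated test, fitted over all 18 arrays, gave an adjusted p under 0.05 (Benjamini-Hochberg over the 12719 genes). At 3 h, 36 of 257 members were higher and 35 lower than at 0 h, and over all tested genes 11.2% were higher and 14.7% lower. At 7 h the counts were 39 higher (15.3% of all genes) and 44 lower (16.3%). By 14 h, 62 were higher (22.2% of all genes) and 64 lower (22.7%). At 21 h, 98 were higher (31.4% of all genes) and 74 lower (28.6%). At 30 h, 109 were higher (36.6% of all genes) and 86 lower (33% of all genes). The member shares at 30 h, 42.4% and 33.5%, lie close to that background. Their median change was 0.10, against 0.09 for all tested genes, and their quartiles were -0.41 and 0.64, against -0.46 and 0.46.

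**Figure D1:**
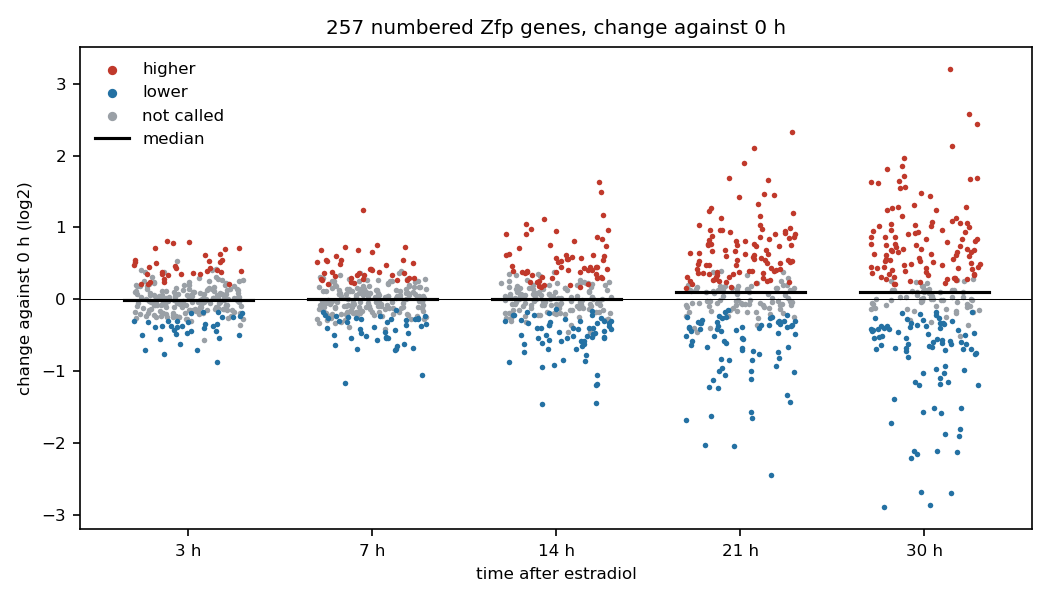
Each point is one of the 257 members, placed by its change against 0 h on the log2 scale (vertical axis) at each time after estradiol (horizontal axis), coloured by whether limma called it higher, lower or neither; black bars are medians and sideways scatter carries no meaning. The spread widened with time, from 36 higher and 35 lower at 3 h to 109 higher and 86 lower at 30 h, while the median stayed near 0; with control scaling the counts were 15 and 4, and 111 and 41.

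A test of any difference over the 6 times called 209 members (81.3%, against 74.3% of all tested genes). Of the members, 71 had their first call at 3 h. The later times added 34 (7 h), 45 (14 h), 45 (21 h) and 31 (30 h) to these, and 31 were called at no time against 0 h. First calls were counted for members alone, so this timing cannot be set against that of all tested genes. Of all members, 21 were called higher at all 5 times (6.33% of all genes were) and 17 lower at all 5 (7.02%). The balance of rises and falls changed under another scaling, called control scaling, in which each array was shifted so that its hybridisation control probe sets had the same mean. The counts against 0 h were then 7 higher (4.31% of all genes) and 15 lower (5.13%) at 7 h, 60 higher (21.9%) and 12 lower (6.38%) at 14 h, and 67 higher (18.9%) and 38 lower (18.3%) at 21 h. At 30 h they were 111 higher (39.3% of all genes) and 41 lower (20.3%), and the median of all tested genes moved from 0.09 to 0.30. Of the members called at 30 h on the values as deposited, 105 of the higher (34.4% of all genes) and 84 of the lower (32.6%) had 3 arrays that did not overlap the 3 at 0 h.

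The largest rise was that of Zfp78, a KRAB zinc finger gene. Its arrays read 4.58, 4.41 and 4.79 at 0 h, 5.23, 5.27 and 5.33 at 7 h, 5.92, 5.99 and 6.36 at 14 h, 7.14, 7.03 and 6.59 at 21 h, and 7.90, 7.73 and 7.76 at 30 h. All arrays from 7 h on lay above all 3 at 0 h, and no array at 30 h overlapped one at 21 h. The change at 30 h was 3.21 ± 0.16 (SE, n = 3 arrays a time), a 9.22-fold rise (limma, adjusted p = 3.71e-11). At 3 h, 11.9% of that change had been reached, at 14 h 46.7% and at 21 h 72.7%.

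Zfp790, another KRAB gene, read 8.11, 8.15 and 8.22 at 0 h and 10.70, 10.77 and 10.74 at 30 h. It rose by 2.58 ± 0.06, 5.97-fold (adjusted p = 2.30e-15, limma), and its arrays at each later time lay above all of those at 0 h. Zfp667, also called Mipu1, read 6.71, 6.79 and 6.67 at 0 h, 7.54, 7.48 and 7.57 at 3 h, and 9.20, 9.11 and 9.16 at 30 h. Its rise of 2.43 ± 0.07 was thus 33.1% complete at 3 h and 51.1% complete at 7 h, earlier than that of Zfp78 in these means. Zfp949 followed a later course: 5.33, 5.09 and 5.41 at 0 h, 5.27, 5.30 and 5.23 at 3 h, 6.27, 6.18 and 6.32 at 14 h, and 7.06, 7.22 and 7.00 at 30 h. Arrays at 3 h overlapped those at 0 h and arrays at 14 and 30 h did not, and its change at 30 h was 1.82 ± 0.10 (adjusted p = 1.60e-10, limma).

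Zfp358 too was not called at 3 h (-0.04 ± 0.07). It read 7.53, 7.29 and 7.54 at 0 h, 7.48, 7.36 and 7.39 at 3 h, 7.99, 8.03 and 7.96 at 7 h, and 9.19, 9.08 and 9.15 at 30 h. Its step from 3 h to 7 h was among the 3 largest rises of that interval (0.58 ± 0.07, limma adjusted p = 2.21e-05). The other rises among the 10 largest were those of Zfp983 (2.14 ± 0.21), Zfp40 (1.97 ± 0.09), Zfp972 (1.86 ± 0.11), Zfp945 (1.71 ± 0.08) and Zfp53 (1.67 ± 0.12). Zfp983, Zfp40, Zfp945 and Zfp53 lie together on chromosome 17 and are taken up again with that run.

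The largest fall was that of Zfp248. It read 5.32, 4.93 and 5.19 at 0 h, 4.18, 4.28 and 4.14 at 14 h, 3.07, 3.13 and 3.18 at 21 h, and 2.13, 1.74 and 2.90 at 30 h. No array at 14, 21 or 30 h overlapped those at 0 h, and the arrays at 21 and 30 h lay below the low end, where values no longer separate a weak signal from none. The measured change at 30 h was -2.89 ± 0.21 (limma, adjusted p = 3.71e-09). Zfp449 (-2.68 ± 0.13) and Zfp647 (-2.11 ± 0.15) also ended below the low end on all 3 arrays at 30 h, and Zfp202 (-1.90 ± 0.17), a SCAN and KRAB repressor known for lipid genes, ended around it, at 3.62, 3.30 and 2.81. For these 4 members the sizes are differences between measured values whose lower end is not firmly measured.

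Zfp827, whose human counterpart brings the NuRD deacetylase complex to telomeres, stayed above the low end. It read 7.07, 7.14 and 7.13 at 0 h, 6.51, 6.56 and 6.64 at 3 h, 5.98, 5.95 and 5.86 at 14 h, and 4.55, 3.75 and 4.48 at 30 h. Each of these times lay below the one before it without overlap, and the fall by 30 h was -2.86 ± 0.15, 7.24-fold (adjusted p = 4.56e-11, limma). Zfp710 fell from 8.67, 8.60 and 8.78 at 0 h to 7.87, 7.95 and 7.97 at 3 h and then to 6.32, 6.11 and 6.29 at 21 h. At 30 h it read 5.72, 6.16 and 6.09, which overlaps 21 h, so that 90.7% of its change of -2.69 ± 0.10 was in place by 21 h.

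Zfp692, a C2H2 factor whose human counterpart binds a regulatory element of a gluconeogenesis gene, fell late. It read 9.88, 9.76 and 9.77 at 0 h, 9.15, 9.31 and 9.40 at 14 h, 9.14, 8.78 and 8.49 at 21 h and 7.71, 7.46 and 7.78 at 30 h. The arrays at 30 h lay below all others, and 46.5% of the change of -2.15 ± 0.12 had been reached at 21 h. Zfp566 fell early instead: 52.9% of its change of -2.21 ± 0.15 was in place at 7 h, when it read 6.21, 6.21 and 6.17 against 7.42, 7.23 and 7.44 at 0 h. Zfp446 (-2.12 ± 0.14) and Zfp428 (-2.11 ± 0.11) complete the 10 largest falls.

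**Figure D2:**
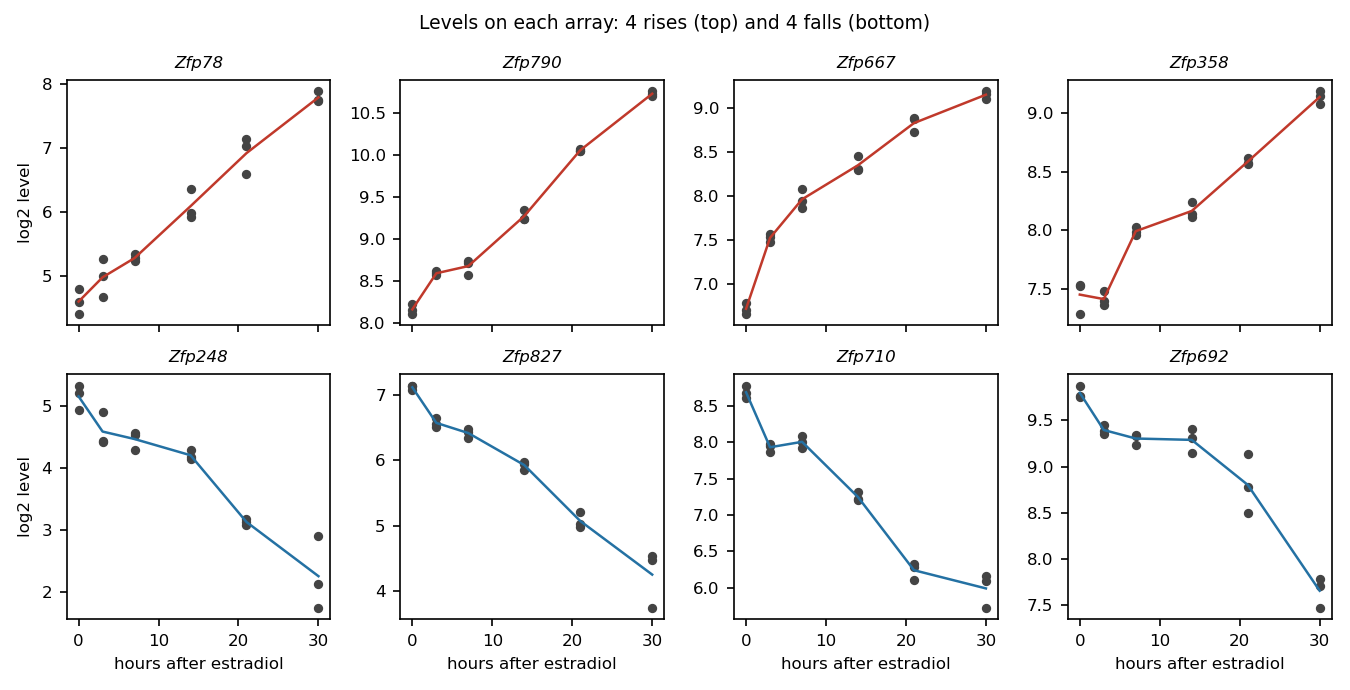
Each panel shows one member's log2 level (vertical axis, own scale) against hours after estradiol (horizontal axis); points are the 3 arrays of a time and lines join their means, red where the gene ended higher and blue where it ended lower. Zfp667 and Zfp710 moved by 3 h, Zfp358 was first higher at 7 h, and Zfp692 dropped most between 21 and 30 h.

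The first 3 h brought changes of under 2-fold. Zfp667 rose by 0.81 ± 0.07 on the log2 scale. Zfp131, a BTB and zinc finger factor, rose by 0.79 ± 0.06 (limma, adjusted p = 1.74e-07), from 8.89, 9.01 and 8.89 at 0 h to 9.68, 9.71 and 9.77 at 3 h. From 7 h to 30 h its arrays lay between 9.36 and 9.67, below those at 3 h and above those at 0 h. Zfp953 rose from 6.02, 5.62 and 5.76 to 6.73, 6.50 and 6.50 at 3 h, went back to 6.12, 6.27 and 6.10 at 7 h, and reached 7.62, 7.29 and 7.37 at 30 h. Zfp53 rose from 7.17, 7.06 and 7.24 to 7.88, 7.90 and 7.84 at 3 h, read no higher than 7.84 on any array at 7 h or 14 h, and rose again to 8.90, 8.85 and 8.74 at 30 h.

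Among the early falls, Zfp771 read 9.24, 9.15 and 9.23 at 0 h and 8.22, 8.43 and 8.35 at 3 h, with no overlap, a change of -0.87 ± 0.09 (limma, adjusted p = 4.56e-06). It stayed between 7.69 and 8.68 on every later array. Zfp710 changed by -0.75 ± 0.10, Zfp566 by -0.71 ± 0.15 and Zfp395, which binds the promoter of the huntingtin gene, by -0.71 ± 0.09 at 3 h. Zfp395 went on down from 6.70, 6.70 and 6.58 at 3 h to 5.81, 5.50 and 5.65 at 30 h, against 7.44, 7.38 and 7.28 at 0 h. All 8 of these early changes passed the test with control scaling too, with adjusted p from 0.000514 (Zfp667) to 0.0483 (Zfp566), although over all members the counts at 3 h were then 15 higher (3.64% of all genes) and 4 lower (2.24%).

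Between neighbouring times the members moved least from 3 to 7 h. In that interval 10 were higher (9.81% of all genes) and 9 lower (5.14%). From 7 to 14 h, 32 were higher (11.5% of all genes) and 13 lower (10.8%). From 14 to 21 h, 62 were higher (15.7% of all genes) and 25 lower (17.5%), so that 24.1% of members were higher and 9.73% lower. From 21 to 30 h, 52 were higher (18% of all genes) and 44 lower (22.5%). With control scaling 0 members were higher (0.999% of all genes) and 2 lower (1.36%) from 3 to 7 h, 32 higher (10.3%) and 0 lower (1.24%) from 7 to 14 h, and 40 higher (13.2%) and 13 lower (5.92%) from 21 to 30 h. The counts of 0 in limma were 1 higher and 2 lower member at an unadjusted p under 0.05. The excess of rises from 14 to 21 h did not hold with control scaling, where 3 members were higher (0.959% of all genes) and 25 lower (13%). Over the same interval the level of 3′ over 5′ control probes for Actb grew (a log2 gap of 1.87, then 2.15), as it did for Gapdh (1.19, then 1.52) and Tfrc (2.03, then 2.43), a sign of RNA or labelling quality whose part in these counts was not tested.

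The steps had different leading members. From 3 to 7 h the largest rises were those of Zfp358, Zfp653 (0.53 ± 0.12) and Zfp335 (0.46 ± 0.10), and the largest falls those of Zfp608 (-0.74 ± 0.10), Zfp800 (-0.55 ± 0.13) and Zfp566 (-0.46 ± 0.15). With control scaling Zfp608 and Zfp800 passed the test in that interval (limma, adjusted p = 0.00136 and 0.0436) and the other 4 did not (adjusted p from 0.101 to 0.599). From 7 to 14 h Zfp78, Zfp949 and Zfp790 rose most, and Zfp710, Zfp202 and Zfp652 fell most. Zfp652, a partner of the ETO-family corepressor CBFA2T3, went from 8.78, 8.67 and 8.65 at 7 h to 8.01, 8.19 and 8.16 at 14 h. With control scaling the rises of that step held and the falls lost their calls (limma, adjusted p from 0.0956 for Zfp710 to 0.269 for Zfp652). From 14 to 21 h Zfp78, Zfp983 and Zfp790 rose most, and Zfp248, Zfp710 and Zfp827 fell most. The last step brought other genes to the front. Zfp58 rose by 1.14 ± 0.10, Zfp30 by 1.04 ± 0.16 and Zfp53 by 0.90 ± 0.12 from 21 to 30 h, while Zfp934 changed by -1.78 ± 0.17, Zfp692 by -1.15 ± 0.12 and Zfp41 by -1.12 ± 0.10 (limma, adjusted p between 1.86e-07 and 8.26e-05).

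Zfp30, Zfp934 and Zfp41 had hardly moved before 21 h. Zfp934 read 5.06 ± 0.05 (mean ± SD, n = 3) at 0 h, 5.17, 5.01 and 4.69 at 21 h, and 3.44, 3.15 and 2.95 at 30 h, where it reached the low end. Zfp41 read 6.54, 6.20 and 6.45 at 0 h, 6.46, 6.33 and 6.18 at 21 h, and 5.21 ± 0.19 at 30 h. Zfp30 read 4.79, 4.93 and 5.04 at 0 h, 5.44, 4.74 and 4.72 at 21 h, and 6.25, 5.79 and 5.97 at 30 h. In each of these genes the arrays at 30 h stood apart from all 15 others.

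Over the steps, 21 members (8.17%, against 14.8% of all tested genes) were called in opposite directions in separate steps between neighbouring times. These steps share arrays where they meet. Zfp608 fell and came back: it read 6.71, 6.71 and 6.65 at 0 h, 5.52, 5.72 and 5.66 at 7 h, and 7.20, 7.05 and 7.17 at 30 h. Its arrays at 7 h were the lowest of all 18 and those at 30 h the highest. Zfp653, Zfp276 and Zfp335, the last a subunit of histone H3K4 methyltransferase complexes, shared a dip at 3 h, by -0.48 ± 0.12, -0.62 ± 0.09 and -0.43 ± 0.10, and each rose again by 7 h. Zfp335 then climbed to 7.93, 7.55 and 7.88 at 30 h, above its 6.91, 6.85 and 7.00 at 0 h, while Zfp653 at 30 h (7.44, 7.46 and 7.60) overlapped 0 h (7.54, 7.36 and 7.61). With control scaling the dips of Zfp653, Zfp276 and Zfp335 at 3 h were -0.38, -0.53 and -0.34 and did not pass the test (limma, adjusted p = 0.341, 0.100 and 0.430), nor did their rises from 3 to 7 h.

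In Zfp58 and Zfp846 the low values lasted longer. Zfp58 read 6.36, 6.25 and 6.42 at 0 h, lay between 5.74 and 6.13 from 3 h to 14 h, and ended at 7.31, 7.55 and 7.28. Zfp846 read 6.27, 6.22 and 6.38 at 0 h, 5.46, 5.56 and 5.72 at 7 h, and 6.46, 6.24 and 6.41 at 30 h, which overlaps its start. Zfp473 and Zfp654 turned the other way. Zfp473, needed for histone pre-mRNA processing, rose to 6.74, 6.26 and 5.89 at 21 h from 5.18, 4.90 and 5.20 at 0 h and came down to 5.59, 5.52 and 5.72 at 30 h, while Zfp654 rose at 3 h (9.52, 9.49 and 9.59 against 9.27, 9.05 and 9.11), fell to 8.67, 8.79 and 8.54 at 21 h and returned to 9.18, 9.29 and 8.92. With control scaling the falls of Zfp58 (-0.34) and Zfp846 (-0.40) at 3 h lost their calls (limma, adjusted p = 0.425 and 0.282), while both were still lower at 7 h than at 0 h (-0.58 and -0.75, adjusted p = 0.0417 and 0.00314). The rise of Zfp654 at 3 h (0.49, adjusted p = 0.162) and both steps of Zfp473, up from 14 to 21 h (0.37, adjusted p = 0.263) and down from 21 to 30 h (-0.50, adjusted p = 0.0730), lost theirs too. Of the 8 members described here, Zfp608 and Zfp654 had opposite steps that both passed the test under that scaling. By contrast, 17 members (6.61%, against 5.02% of tested genes) had means that rose at all 5 steps and 13 (5.06%, against 7.26%) had means that fell at all 5, counting only genes with 1 or more of those steps called.

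**Figure D3:**
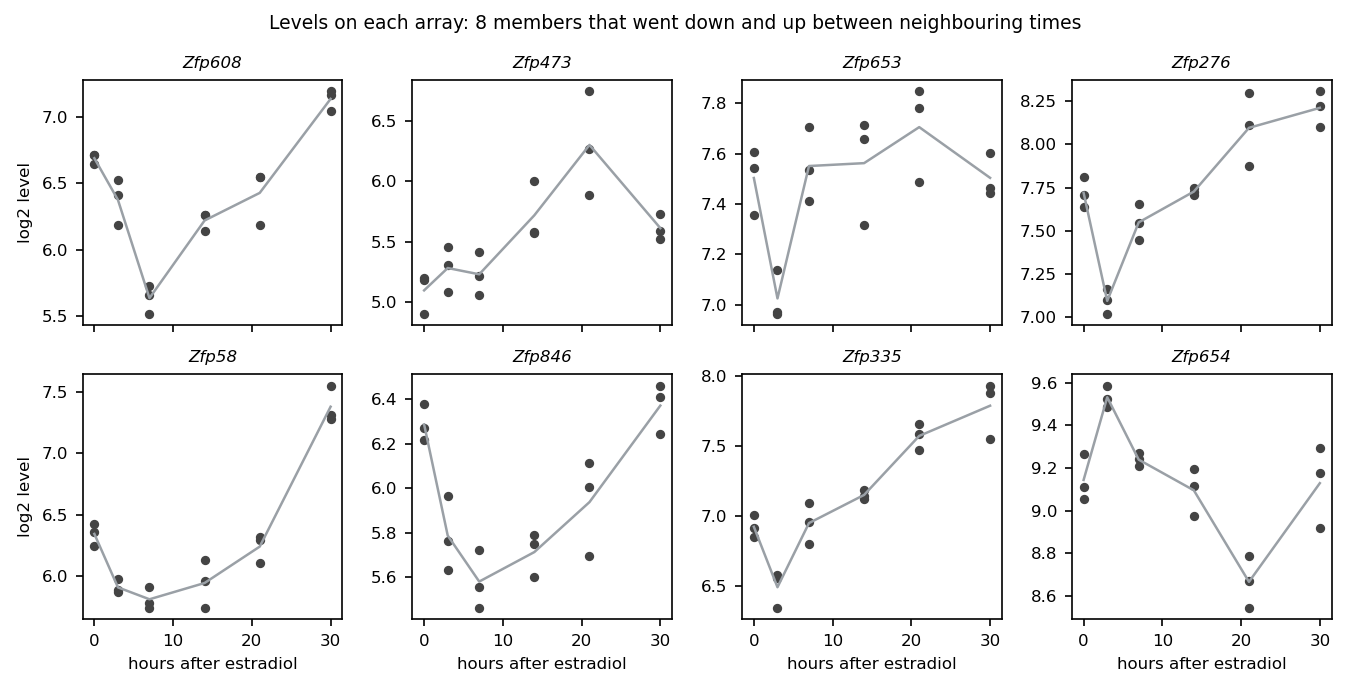
Each panel shows the log2 level (vertical axis, own scale) of one of the 8 members with the largest opposite steps against hours after estradiol (horizontal axis); points are arrays and grey lines join the means of 3. Zfp653, Zfp276 and Zfp335 were lowest at 3 h, Zfp608 and Zfp846 at 7 h, and Zfp654 was highest at 3 h and lowest at 21 h.

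The members' places along the chromosomes were taken from RefSeq gene order. Counting as a run 4 or more members with no more than 3 other protein-coding genes between neighbours, 13 runs held 89 members. In the runs 44 were higher and 27 lower at 30 h, and among the 168 members outside them 65 were higher and 59 lower, where 36.6% of all tested genes were higher and 33% lower. The difference between these groups was not tested. Adjacent members moved both together and apart. Of 73 adjacent pairs within runs, both genes were called in 44, with 17 pairs both higher, 8 both lower and 19 opposite.

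One run stood out by its counts and was singled out after its values were seen, so that it is described and not tested. It lies on chromosome 17, spans 26 protein-coding genes and holds 17 members, from Zfp54 to Zfp40. At 30 h, 16 of the 17 were higher (36.6% of all tested genes were) and 1 lower, with a median change of 1.02. The higher members ranged from Zfp758 (0.43 ± 0.08) to Zfp983 (2.14 ± 0.21). Of 27 probe sets above the low end for these genes, 24 were higher and 1 lower, and no such share was counted over all probe sets. The counts of higher members grew from 7 at 3 h to 8, 10, 15 and 16 at 7, 14, 21 and 30 h. Over all tested genes the share called higher grew as well, at 11.2%, 15.3%, 22.2%, 31.4% and 36.6% in that order. With quantile normalization and with control scaling the count at 30 h was again 16, with median changes of 1.11 and 1.22.

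The exception was Zfp52, next to Zfp53 in gene order. It read 4.89, 4.66 and 5.36 at 0 h, 5.28, 5.57 and 5.68 at 3 h, and 4.44, 4.08 and 4.58 at 30 h, where no array overlapped 0 h. Its change of -0.60 ± 0.22 (limma, adjusted p = 0.0212) no longer passed the test with quantile normalization (-0.52, adjusted p = 0.0562) or control scaling (-0.40, adjusted p = 0.0826). Zfp983 read 5.81, 5.17 and 5.97 at 0 h and 8.01, 7.45 and 7.90 at 30 h, and its 2 other probe sets rose by 1.91 and 0.74. Zfp40 rose from 6.58, 6.56 and 6.61 to 8.65, 8.47 and 8.54, its 2 other probe sets above the low end by 1.39 and 0.91, and one below the low end by 0.71. Zfp995, read by a probe set that may bind related transcripts, rose by 1.25 ± 0.08, and its other probe set by 1.16.

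Genes around the run did not share one direction. Zfp820 and Zfp677, inside the run and next to it, were below the low end on all arrays. The other protein-coding genes inside the run were not tested. Beyond the last member, Zfp213 was lower (-0.30 ± 0.09; with control scaling -0.095, not called) and Zfp13 higher (0.47 ± 0.16), and of the 8 other tested genes among the 20 that follow, 4 were higher and 4 lower. Before the first member, Zfp160 was higher (0.54 ± 0.15) and Ppp2r1a was not called (-0.10 ± 0.08).

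**Figure D4:**
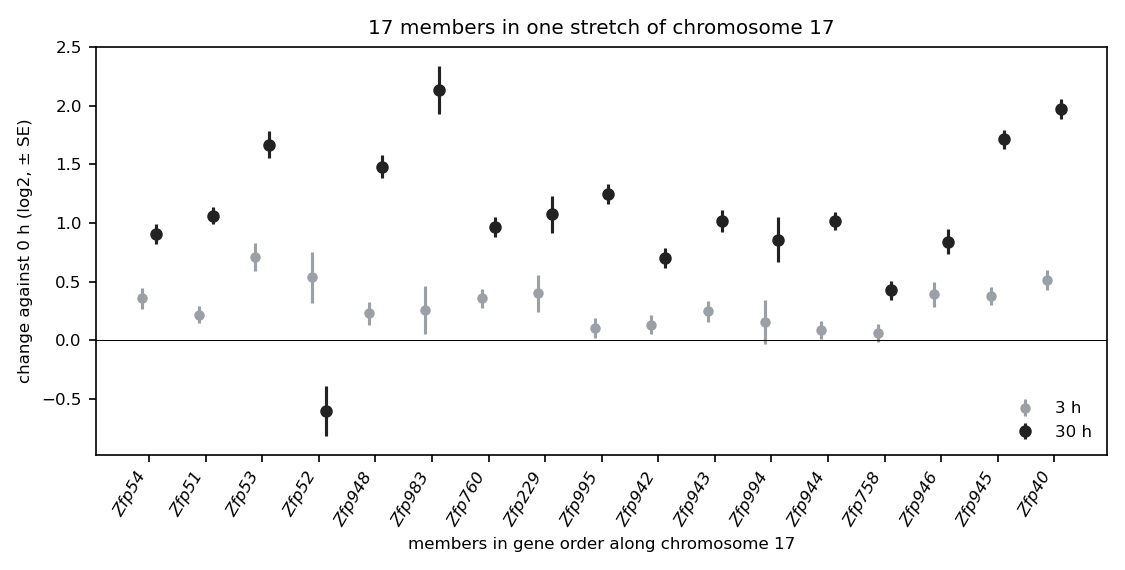
Change against 0 h (vertical axis, log2, bars are the standard error from limma) of the 17 members of the chromosome 17 run, in gene order (horizontal axis), at 3 h (grey) and 30 h (black). At 30 h 16 lie above 0, between 0.43 and 2.14, and Zfp52 lies at -0.60.

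Some promoters of the run, though not most, share letters that most members lack, which were also noticed after the values were seen. CACGTG was found for 6 of the 15 run genes with an entry (40% against 9.64% of tested genes). The genes are not independent copies of it. Zfp942 and Zfp943 start 94 bases apart on opposite strands and share one site, as do Zfp944 and Zfp758, 62 bases apart. The Zfp943 and Zfp758 windows have 198 bases in a row in common. The 6 genes thus hold 4 sites, printed here once each with CACGTG in capitals.
Zfp943 (shared with Zfp942), chr17:21962486-21962545, plus strand: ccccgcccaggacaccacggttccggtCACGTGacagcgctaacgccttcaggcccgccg
Zfp758 (shared with Zfp944), chr17:22361397-22361456, plus strand: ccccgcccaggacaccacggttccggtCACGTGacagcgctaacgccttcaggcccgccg
Zfp994, chr17:22225742-22225801, minus strand: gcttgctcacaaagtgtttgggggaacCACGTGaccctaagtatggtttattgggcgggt
Zfp946, chr17:22424165-22424201, plus strand: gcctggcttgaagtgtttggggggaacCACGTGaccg
The first pair of stretches is the same letter for letter, and Zfp994 and Zfp946 have 17 bases in a row in common.

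All 4 genes that start back to back from these sites rose, as 16 of the 17 members of the run did. Zfp983, Zfp945, Zfp53 and Zfp948, whose windows hold no CACGTG, rose by more (2.14, 1.71, 1.67 and 1.48). Over all members CACGTG was found for 7.45% of those that rose and 5.88% of those that fell, against 9.64% of tested genes. Any link between the site and the rises was not tested. Zfp942 read 8.80, 8.75 and 8.99 at 0 h and 9.59, 9.48 and 9.56 at 30 h, and Zfp943 read 6.97, 7.07 and 7.29 and then 8.21, 8.12 and 8.06. Zfp944 read 8.37, 8.57 and 8.49 at 0 h and 9.55, 9.41 and 9.52 at 30 h, and Zfp758 read 6.17, 6.07 and 6.17 and then 6.56, 6.61 and 6.51. The changes were 0.70 ± 0.08, 1.02 ± 0.09, 1.02 ± 0.07 and 0.43 ± 0.08 in that order, each without overlap between the times. Whether probe sets of these close relatives bind each other's transcripts was not tested, so their values may not be separate measurements. A second, dimmer probe set of Zfp942 (-0.10) and one of Zfp944 (-0.23) were not called.

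Other runs were mixed, and the counts below stand beside 36.6% higher and 33% lower over all tested genes. A chromosome 7 run of 8 from Zfp180 to Zfp94 had 1 member higher and 5 lower, with a median of -0.45. Another of 11 from Zfp84 to Zfp566 had 4 higher and 5 lower and holds both Zfp790 (2.58) and Zfp566 (-2.21). A run of 5 held Zfp78, Zfp667 and 2 other higher members, with 1 lower. By symbol number, members from Zfp900 to Zfp999 were higher in 25 and lower in 5 of 34, with a median of 0.78. Like the chromosome 17 run, this block was singled out after values were seen, and it was not tested. That block holds 9 of the chromosome 17 run, and the other 25 had 16 higher and 5 lower with a median of 0.32, against 84 higher and 81 lower of the 223 members with other numbers.

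The groups by role are small, and their counts at 30 h stand beside 36.6% higher and 33% lower over all tested genes. The members with roles in silencing repeats and imprinted genes split evenly. Of 12 listed, 8 were tested and 4 were higher and 4 lower at 30 h. Zfp445, a guardian of imprinted regions, rose from 9.88, 10.07 and 10.12 to 10.74, 10.60 and 10.73 (0.67 ± 0.10), and Zfp809, which silences murine leukemia proviruses, from 9.71, 9.65 and 9.51 to 10.07, 9.89 and 9.92 (0.34 ± 0.07). Zfp568, a repressor of a placental Igf2 promoter, fell from 9.32, 9.37 and 9.37 to 8.80 ± 0.18 (SD, n = 3), a change of -0.55 ± 0.07 that lost its call with control scaling (-0.35, limma adjusted p = 0.109). None of the 3 overlapped its 0 h arrays. A dimmer probe set of Zfp568 fell by more (-1.81, limma adjusted p = 4.09e-07). The other falls were larger, those of Zfp316 (-1.80 ± 0.19), Zfp708 (-1.10 ± 0.11) and Zfp961 (-0.68 ± 0.09). The other rises were those of Zfp110 (0.64 ± 0.07) and Zfp932 (0.26 ± 0.06), and the median of the 8 was -0.15. The 2 other probe sets of Zfp445 above the low end did not rise (-0.31 and -0.030, not called), and averaging its probe sets gave 0.11 (limma, adjusted p = 0.190). Zfp57, the best known imprint keeper, was above the low end on 1 array and was left out.

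The list of KRAB corepressor genes, which also holds genes of DNA methylation and of other heterochromatin, moved mostly one way. Of 30 tested genes of that list, 23 were lower and 3 higher at 30 h, with a median of -0.69. Of all tested genes 33% were lower and 36.6% higher, with a median of 0.09. At 3 h 6 were lower (14.7% of all tested genes) and 1 higher (11.2%), and at 21 h 23 were lower (28.6%) and 1 higher (31.4%). Trim28, the shared corepressor, changed from a mean of 12.14 at 0 h to 11.51 at 30 h (-0.63 ± 0.07; with control scaling -0.42, limma adjusted p = 0.0525), and Setdb1, the H3K9 methyltransferase it recruits, from 10.76 to 9.98 at 3 h and 9.41 at 30 h (-1.36 ± 0.07). The largest falls were those of the remodeller Hells (-3.09 ± 0.05), the DNA methyltransferase Dnmt3b (-2.67 ± 0.07), the H3K9 methyltransferase Suv39h2 (-2.10 ± 0.12) and the hemimethyl-DNA reader Uhrf1 (-1.70 ± 0.05). Hells and Uhrf1 fell mainly after 21 h, from means of 9.72 and 11.32 to 7.70 and 10.19. Atf7ip (0.58 ± 0.09), Mphosph8 (0.33 ± 0.08) and Morc2a (0.31 ± 0.13) were higher. With control scaling 16 were lower (20.3% of all tested genes) and 3 higher (39.3%), with a median of -0.49 against 0.30 for all tested genes.

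**Figure D5:**
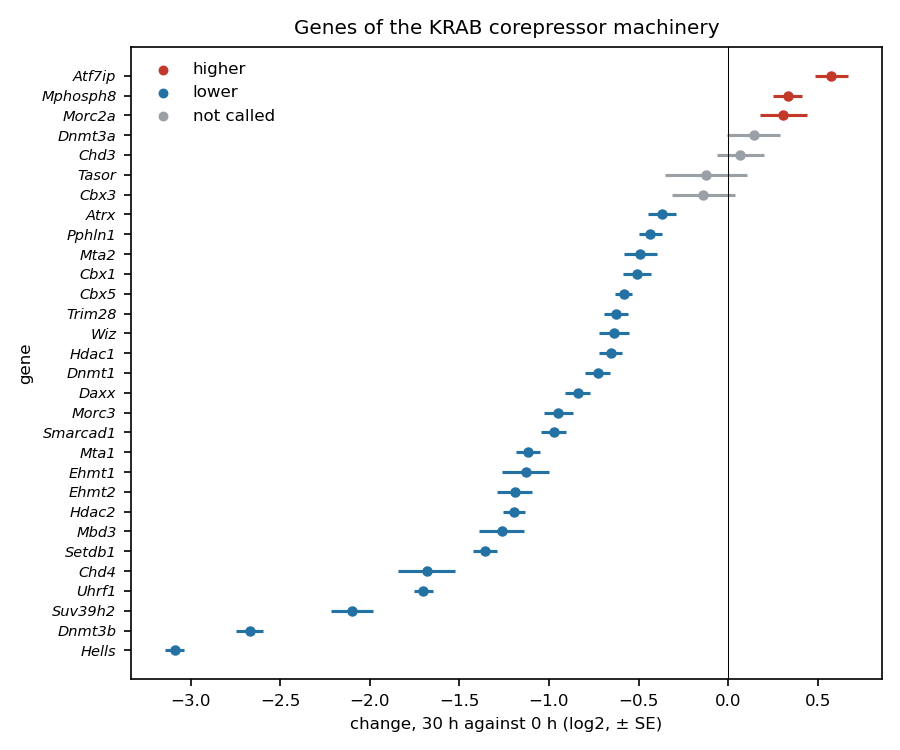
Change from 0 h to 30 h (horizontal axis, log2, bars are the standard error from limma) of the 30 tested genes of the KRAB corepressor list (vertical axis, sorted), coloured by call. Called falls number 23 and lie below 0, from Atrx at -0.37 to Hells at -3.09, 3 are higher and 4 were not called.

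The list of making and quality control of ribosomes had 4 tested members, which act in making or watching over ribosomes. All 4 were lower at 30 h, as were 33% of all tested genes. Zfp593, an export factor for the large subunit, fell from 7.85, 8.11 and 8.22 to 7.12, 7.07 and 6.91 (-1.03 ± 0.10). Zfp598, the ubiquitin ligase that marks collided ribosomes, fell from 8.24, 7.93 and 8.10 to 7.44, 7.40 and 7.36 (-0.69 ± 0.08). The nucleolar protein gene Zfp330 (-0.36 ± 0.06) and the large subunit maturation factor Zfp622 (-0.18 ± 0.05) changed less. With control scaling Zfp330 was at -0.16 (limma, adjusted p = 0.490) and Zfp622 at 0.022 (adjusted p = 0.928), so that neither passed the test and the sign of Zfp622 turned.

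Among RNA-binding members 3 of 5 were higher and 1 lower. Zfp346, which binds double-stranded RNA, rose from 8.03, 7.95 and 8.05 at 0 h to 8.42, 8.62 and 8.59 at 3 h and 9.53, 9.54 and 9.59 at 30 h (1.54 ± 0.10, 2.92-fold), with no overlap at either time. Zfp326, which couples splicing to transcription, rose by 3 h from 7.95, 8.07 and 8.17 to 8.65, 8.85 and 8.76 and read 8.57, 8.61 and 8.52 at 30 h. Zfp106 was lower, at 10.66, 10.33 and 10.51 against 11.01 ± 0.01 (SD, n = 3), a call lost with control scaling (-0.31, limma adjusted p = 0.179).

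Of 7 promoter factors 2 were higher and 2 lower. Zfp410, known for activating Chd4 almost alone, rose from 9.21, 9.21 and 9.37 at 0 h to 9.54, 9.65 and 9.65 at 3 h and 10.19, 10.23 and 10.18 at 30 h (0.94 ± 0.06, limma adjusted p = 6.81e-10). With control scaling its change at 3 h was not called (0.45, limma adjusted p = 0.204). Over the same arrays Chd4 changed from a mean of 10.13 at 0 h to 9.50 at 3 h and 8.45 at 30 h (-1.68 ± 0.16), in the opposite direction. Zfp148, a GC-box factor, fell from 9.66, 9.75 and 9.23 to 9.12, 9.04 and 8.86 (-0.54 ± 0.13), and Zfp281, its relative, by less (-0.22 ± 0.08). With control scaling both falls lost the call, with Zfp148 at -0.34 (limma, adjusted p = 0.140) and Zfp281 at -0.021 (adjusted p = 0.929).

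In the remaining role groups the counts were small. Zfp217, a partner of the LSD1 and CoREST demethylase complex, rose from 10.33, 10.27 and 10.21 at 0 h to 10.73, 10.76 and 10.77 at 3 h and 11.10, 11.09 and 11.04 at 30 h (0.81 ± 0.05), with the change at 3 h not called under control scaling (0.58, limma adjusted p = 0.0614). Among 4 tested chromatin partners 1 was higher and 2 lower, and among 6 tested mitosis and genome upkeep genes 3 were higher and 1 lower. Of 3 tested signalling and ubiquitin genes 2 were lower, Zfp395 (-1.72 ± 0.09) and Zfp318 (-0.59 ± 0.06; with control scaling -0.39, limma adjusted p = 0.0755). Of 11 lineage regulators listed 2 were tested, with Zfp105 higher (0.66 ± 0.11) and Zfp703 lower (-0.43 ± 0.06; with control scaling -0.23, limma adjusted p = 0.300), and Zfp521, Zfp423, Zfp42, Zfp467 and Zfp536 were below the low end on all arrays.

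The role groups had other counts at 30 h with control scaling, where 39.3% of all tested genes were higher and 20.3% lower. The higher and lower counts were 4 and 3 of 8 for the silencing of repeats and imprinted genes, 0 and 2 of 4 for ribosomes, 3 and 0 of 5 for RNA binding, and 2 and 0 of 7 for promoter factors. They were 1 and 0 of 4 for chromatin partners, 1 and 1 of 6 for mitosis and genome upkeep, 0 and 1 of 3 for signalling and ubiquitin, and 1 and 0 of 2 for lineage regulators.

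Other zinc finger families were counted at 30 h, when 36.6% of all tested genes were higher and 33% lower. Of 39 tested Zbtb genes 14 were higher and 13 lower, of 7 Zscan genes 3 and 2, of 7 Zkscan genes 3 and 3, and of 15 Klf genes 8 and 3, while both tested genes named as relatives of Zfp36 (Zfp36 followed by l and a digit) were lower. Klf1, a main GATA1 partner gene, rose by 0.80 ± 0.05. The differences between these families and the numbered Zfp genes were not tested.

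Among members with bright probe sets, some moved and others did not pass the test. Zfp655 rose from 10.50, 10.52 and 10.50 at 0 h to 11.89, 11.76 and 11.80 at 30 h (1.31 ± 0.05), with all 3 arrays at 3 h just below the start. Zfp207, the spindle assembly factor BuGZ, read 11.03, 11.04 and 11.02 at 0 h and 11.02, 11.07 and 11.09 at 30 h. Zfp91, a ubiquitin ligase, read 10.93, 10.88 and 10.89 and then 10.92, 10.90 and 10.89. Zfp507, Zfp574 and Zfp788 were, with Zfp91, those that varied least between times: Zfp507 stayed between 9.47 and 9.81 over all 18 arrays. This holds for the brightest probe set of each gene alone. Dimmer probe sets of Zfp574 (-0.39 and -0.58) and Zfp507 (-0.64) were called lower at 30 h. Averaged over probe sets, Zfp574 (-0.37) and Zfp91 (-0.38) were lower (limma, adjusted p = 4.00e-06 and 0.00122). Zfp507 (-0.32) and Zfp788 (-0.20) were then not called.

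Some genes of the arrays followed the leading members closely over the 6 time means. The course of Zfp78 was most like those of Asb1, Cog1 and Hint3 among all genes (Pearson r of 0.999 for each, over 6 times) and of Zfp790, Zfp120 and Zfp655 among members (r of 0.998, 0.994 and 0.989). That of Zfp248 was most like those of Abcf2, Cd320 and Six5 among all genes and of Zfp827, Zfp458 and Zfp386 among members (0.995, 0.993 and 0.991). These values describe 6 means from the same arrays. With so few points a smooth rise or fall gives a high value, and 61 members reached 0.9 with Zfp78.

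At the edge of the filter, no kept member passed on exactly 3 arrays or through a single time. The kept members nearest the edge were Zfp90 (above on 4 arrays, mean 3.12), Zfp541 and Zfp957 (5 arrays each). Just outside lay Zfp286 (2 arrays, mean 3.02) and Zfp57, Zfp579, Zfp580 and Zfp612 (1 array each), and the other 42 left out were above it on 0 arrays. Of the kept members, 237 were above it on all 18.

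Probe sets of one gene did not always agree. Of 110 members with 2 or more probe sets above the low end, 9 had some called higher and some lower at 30 h: Zfp207, Zfp319, Zfp398, Zfp451, Zfp644, Zfp703, Zfp800, Zfp84 and Zfp982. Averaging all probe sets of a gene moved several changes at 30 h by over 1.5 times. Zfp248 was then at -1.15, Zfp710 at -1.25, Zfp771 at -0.56, Zfp40 at 1.25, Zfp944 at 0.48, Zfp30 at 0.60, Zfp410 at 0.56, Zfp160 at 0.27, Zfp106 at -0.25, Zfp318 at -0.93 and Zfp568 at -1.18, all still called. The calls of Zfp54 (0.14), Zfp942 (0.19), Zfp281 (-0.073), Zfp622 (-0.12), Zfp213 (0.018) and Zfp703 (0.050) were lost (limma, adjusted p from 0.0948 to 0.885), and the last 2 of these turned sign. Among members whose probe sets disagree, Zfp800 is the widest case. Its brightest probe set fell by 1.51, 4 others had changes from -1.04 to -2.36, one was higher (0.51) and one was not called (-0.08). Zfp24 was not called by its brightest probe set (0.02), while its 5 dimmer ones were all lower, by -0.58 to -1.03. Which transcripts these probe sets read was not tested. In all, 21 members are read by probe sets of the _x_at or _s_at kind, which can bind related genes.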

How the data were processed

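Mouse G1E-ER4 cells were profiled on 18 arrays, 3 at each of 6 times of estradiol. The authors deposited one table of log2 expression values per probe set. How these were background-corrected, normalized and summarised is not stated in the labels, and no counts lie behind them, so precision rests on the 3 arrays a time. The values were used as deposited. Probe sets were named through the platform annotation, keeping those with 1 gene symbol, and each gene was read by its probe set of highest mean. Genes were kept when above their array's 40th percentile on 3 or more arrays. limma 3.58.1 (R 4.3.3) fitted 6 time means over all arrays (12 residual degrees of freedom), and p-values were adjusted by Benjamini-Hochberg over 12719 genes at 0.05. A value "a ± b" is a log2 change with its limma standard error. On simulated data for 30 h versus 0 h the fit recovered 84% of 1.5-fold and 98% of 2-fold changes, with 6 false calls among unchanged genes. In that simulation few genes changed, the noise was independent between arrays and no array was shifted as a whole. The real data differ in this, so these rates cannot be carried over to the counts given here.

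The members and lists were chosen with earlier results of these data known, and no list was tested as a set. Named members were the 10 largest rises and falls at 30 h among called members whose arrays did not overlap, the 4 largest at 3 h, the 3 largest at each later step, the 8 with the largest opposite steps, the brightest and least variable, and the role lists. Members outside it, such as the chromosome 17 run, were chosen after values were seen. Role, partner and family lists were described by counts and medians. Alternatives were quantile normalization, control scaling (arrays shifted to an equal mean of their bacterial and phage hybridisation control probe sets), other level filters, averaging the probe sets of a gene, no _x_at or _s_at probe sets, only the arrays compared, a trended and robust variance, a replicate block, at least a 1.5-fold change and each array left out in turn. Protein sequences were not analysed here.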

Additional observations from a re-analysis of the deposited data

How the results depend on the processing

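The counts of members rested most on the scaling of arrays and on any minimum fold. With control scaling, which shifted arrays by -0.28 to 0.22, the higher and lower counts were 15 and 4 at 3 h, 7 and 15 at 7 h, 60 and 12 at 14 h, 67 and 38 at 21 h and 111 and 41 at 30 h against 0 h, and 0 and 2 from 3 to 7 h, 32 and 0 from 7 to 14 h, 3 and 25 from 14 to 21 h and 40 and 13 from 21 to 30 h. The cause was not tested. With at least a 1.5-fold change the counts were 8 and 5 at 3 h, 8 and 9 at 7 h, 22 and 18 at 14 h, 53 and 32 at 21 h and 69 and 49 at 30 h, and 0 and 1, 4 and 2, 6 and 6, and 13 and 20 over the steps in order, fewer by construction. Shares over all tested genes are not given at 1.5-fold or for the settings that follow, so these counts show dependence on processing alone. From 3 to 7 h the higher count was 17 with only the arrays compared, and the lower count was 14 with only those arrays, 4 with no filter, 16 with the mean of probe sets and 5 with a replicate block. From 7 to 14 h the lower count was 21 with the 60th percentile filter and 20 with trended and robust variance, and from 14 to 21 h the higher count was 35 with only the arrays compared. Quantile normalization and leaving out _x_at and _s_at probe sets kept all counts within 1.5 times.

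Same-numbered arrays did not deviate together in these values (correlations of -0.17 to 0.19, mean 0.012). The labels do not say whether a number marks a shared culture or batch, and these correlations cannot decide it. The replicate block changed no other count by over 1.5 times, with 108 higher and 85 lower at 30 h. Leaving out arrays in turn gave 99 to 109 higher and 74 to 88 lower members at 30 h. The lower count ranged from 23 to 39 at 3 h (23 without 0 h replicate 1) and from 27 to 48 at 7 h (27 without 7 h replicate 3). From 3 to 7 h it ranged from 3 to 13, at 5, 4, 3 and 5 without 3 h replicate 1, 3 h replicate 3, 7 h replicate 1 and 7 h replicate 2 in that order, and the higher count from 7 to 12. From 7 to 14 h the higher count ranged from 21 to 37 (21 without 7 h replicate 3) and the lower from 10 to 20 (20 without 21 h replicate 3). The higher count of the chromosome 17 run, an analysis added after seeing the data, was 16 under each of these settings except the mean of probe sets, where it was 14, and at least a 1.5-fold change, where it was 15.

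Among named members called at 30 h under one or both of the settings compared, the change turned sign for Zfp622 with control scaling (0.022), for Zfp91 (-0.38), Zfp277 (-0.056), Zfp24 (-0.66) and Zfp703 (0.050) with the mean of probe sets, and for Zfp263 without _x_at and _s_at probe sets (-0.26). With control scaling 4 called and 24 uncalled members of all 257 turned sign, 1 and 5 of them named, among these Zfp451, Zfp574, Zfp638, Zfp654 and Zfp788. Low signal limits the falls of Zfp248, Zfp449, Zfp647, Zfp202 and Zfp934, which end near or below the 40th percentile of their arrays.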
